A study of Mus musculus with 6 samples.

Results

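Genes of endoplasmic reticulum (ER) stress and of protein folding for secretion were followed in splenic memory B cells of mice, isolated by sorting. The 54 genes were taken by symbol from a list of stress sensors, factors of the integrated stress response, ER chaperones, enzymes of disulfide formation, components of ER-associated degradation and parts of the translocon, and all 54 were among the 35186 symbols of the count table. Of them, 32 had enough counts to be tested, among 8895 tested genes. Cells that bound the hapten antigen NP were sorted from C57BL/6J animals that were wild type (WT, 3 libraries) or labelled Nix-/-Bnip3-/- (DKO, 3 libraries), and each library came from about 1000 cells. Nix is the protein of Bnip3l. It and Bnip3 sit in the outer membrane of mitochondria and recruit the machinery of mitophagy, the removal of mitochondria by autophagy. The labels name no promoter or Cre line behind the deletion, no age, and no animal of origin for a library, so the p-values reflect only how far these samples differ within a group, and that spread may be technical.

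Proteins bound for the cell surface or for secretion enter the ER through a channel, the translocon, and are folded there by chaperones and disulfide isomerases. Proteins that do not fold are drawn back into the cytosol and degraded. When unfolded proteins build up, sensors in the ER membrane reduce translation and raise the transcription of folding and degradation genes. Activated B cells rely on this response when they become plasma cells and secrete antibody, whereas resting memory B cells secrete little.

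Sequencing was shallow, with 312908 to 517057 counts per library. A single count was worth 1.84 to 5.25 normalized CPM, which are counts over the library size in CPM units after TMM scaling. The WT libraries had counts for 50.7% to 52.5% of all symbols and the DKO libraries for 67.0% to 70.4%. The part of this gap in the results below was not tested. Counts of Bnip3, in the order of replicate numbers, were 25, 62 and 6 for WT against 2, 24 and 11 for DKO, and those of Bnip3l were 1, 8 and 0 against 10, 16 and 41. The same order, WT first, holds for each triple of counts below. Neither gene separated the groups, so each direction given here is between libraries as labelled. The B cell markers were sparse. All 10 had a count somewhere, but Cd79a was at 0 in 3 libraries and had at most 4 counts, and the summed level of the list was 189 to 398 normalized CPM in WT and 204 to 285 in DKO libraries. Plasma cell markers (10 genes, all with a count) summed to 270 to 1140 in WT, the highest value being WT library 3, of which Ell2 alone made 782, and to 209 to 414 in DKO libraries. Monocyte and macrophage markers (10 genes, all with a count) summed to 141 to 703 and 446 to 1073, T cell markers to 308 to 987 and 153 to 250.3, neutrophil markers to 224 to 457 and 183 to 1272, and erythroid markers (7 genes, with Hba-a2 and Hbb-bs at 0 in all libraries) to 58.0 to 120.1 and 14.7 to 29.1. Levels were measured on bulk RNA, in which fewer cells of a type and less RNA per cell cannot be told apart, and the part of these other cell types in the results was not tested.

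More of the ER genes had a count in each DKO library, as did more of all symbols, and the summed scaled level of the set overlapped between groups. Of the 54 genes, 37, 43 and 41 were seen with a count in WT, against 47, 51 and 47 in DKO. These were 68.5% to 79.6% of the set in WT and 87.0% to 94.4% in DKO, beside the 50.7% to 52.5% and 67.0% to 70.4% of all symbols. Together they held 0.159%, 0.162% and 0.171% of all counts for WT against 0.243%, 0.281% and 0.255% for DKO, with groups that did not overlap. After TMM scaling the summed levels overlapped, at 2591, 3134 and 2878 against 2447, 2671 and 2547 normalized CPM. The median level of the 54 genes, which a single abundant gene cannot move, was 15.7, 23.2 and 15.8 normalized CPM for WT against 35.1, 31.3 and 36.8 for DKO. Over all symbols of the table the median was 3.86 to 5.25 in WT and 4.52 to 5.81 in DKO libraries. In each WT library this was a single count, at the limit of detection. Over all tested genes the median was 46.4 to 47.3 in WT and 47.5 to 49.7 in DKO libraries. Over the tested ER genes, some of which had enough counts in DKO libraries alone, it was 28.9 to 38.6 and 50.9 to 59.8. These values are descriptions, and no test was made over the set.

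**Figure D1:**
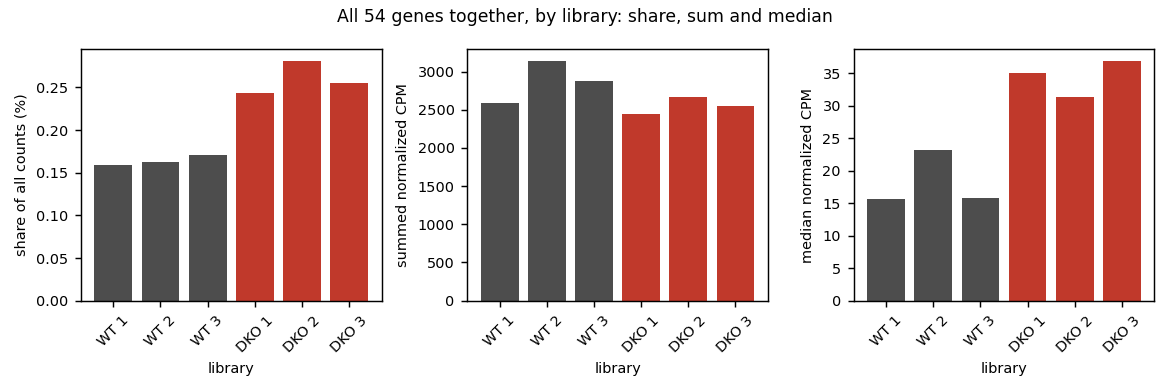
All 54 genes together in each library (x axis), as their share of all counts in percent, their summed normalized CPM and their median normalized CPM (y axes). Grey bars are WT and red bars DKO libraries; the share and the median separate the groups, while the sums, 2447 to 3134 normalized CPM, overlap.

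Under the quasi-likelihood test of edgeR, with Benjamini-Hochberg adjustment and a threshold of 0.05, 0 of the 32 genes passed, as did 0% of the 8895; the smallest edgeR adjusted p among the 32 was 0.390. At an unadjusted p under 0.05 there were 3 higher in the DKO libraries (Herpud1, Atf6, Derl1) and 0 lower, where 5.49% and 6.59% of all tested genes were. DESeq2 on the same genes called 6.76% of them and 1 of the 32, Herpud1; limma-voom called 0. Log2 fold changes, DKO against WT, lay above 0 for 20 of the 32 (62.5%) and for 45.5% of all tested genes. Their median was 0.24, beside -0.17 over all tested genes. With library totals alone in place of TMM, 78.1% of the 32 and 64.3% of all tested genes lay above 0, and the medians were 1.03 and 0.62, so each direction below is to be read against the shift of all genes. For 7 of the 32 all 3 DKO libraries lay above all 3 WT libraries (21.9%, where 12.8% of all tested genes did), and for 1 they lay below (3.13%, where 6.39% did). With library totals alone these were 9 and 0, where 23.8% and 2.51% of all genes were. The filter on low counts bears on these numbers, since 5 of the 32 genes (Eif2ak2, Hspa5, Hyou1, Herpud1, Derl1) passed it through DKO libraries alone and 0 through WT libraries alone. The filter is set on counts over library totals, where such genes had to be higher in DKO libraries. After TMM scaling this is favoured but not fixed. All 5 are among the 7 with DKO above WT, and the other 2 are Atf6 and Ern1. Atf6 was over the filter level in 1 WT and 3 DKO libraries, so its pass also rested mainly on DKO libraries. Ern1 was over it in 3 and 3.

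**Figure D2:**
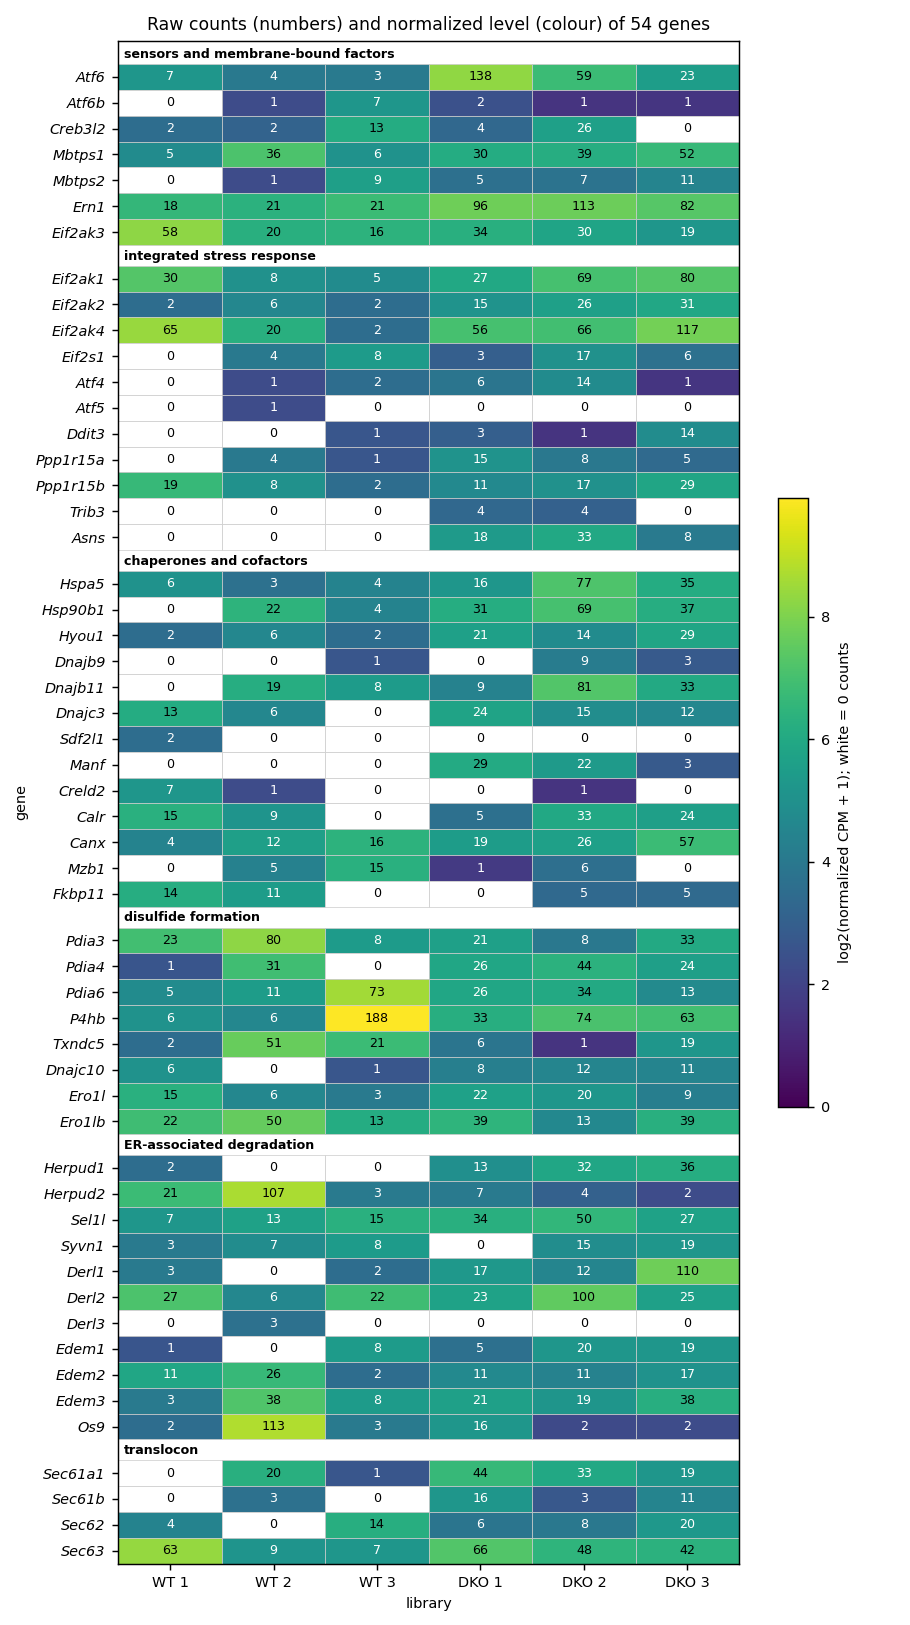
Raw counts (numbers in the cells) and normalized level (colour, log2 of normalized CPM plus 1, white for 0 counts) of the 54 genes (rows, by role) in the 6 libraries (columns). Zeros are more frequent in the 3 WT columns, and single cells stand out, such as 188 counts of P4hb in WT 3 and 113 of Os9 in WT 2.

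Some of the genes hold a promoter element that was not used to choose them, although several are known targets of the stress response and were listed for that function. The ER stress response element (ERSE), bound by ATF6 together with the factor NF-Y, was searched as CCAAT, 9 bases and CCACG on both strands, in RefSeq promoters (GRCm38.p6) from 250 bases before to 50 after each start. It was found for 10 of the 47 genes with a promoter in the table (21.3%) and for 37 of 27025 genes in all (0.137%). The 10 were Hspa5, Hsp90b1, Calr, Canx, Dnajc3, Creld2, Pdia6, Ero1lb, Syvn1 and Derl3. Its variant ERSE-II (ATTGG, 1 base, CCACG) was found in the promoters of Herpud1 and Dnajb11, 4.26% of the 47 genes and 0.044% of all. The element of amino acid and stress responses bound by ATF4 (CARE, searched as TGATG, 1 base and AA) was found for Asns, Trib3, Herpud1 and Txndc5, 8.51% against 4.51%. The core TGACGTG of the unfolded protein response element was found for Hspa5, Txndc5 and Fkbp11, 6.38% against 2.22%; it reads CACGTCA on the other strand and can overlap the CCACG of an ERSE. A match describes the letters and not binding.

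Stretches upstream of the RefSeq start are printed on the gene's strand for the genes whose values follow, with the element in capitals and 30 bases on either side where the start site allowed. Gene positions given below come from GENCODE, whose starts can differ from those of RefSeq. By the GENCODE positions the Hspa5 stretch lies inside its gene, and the Asns and Hsp90b1 stretches overlap theirs. Hspa5 and Pdia6 carry the ERSE in the same orientation but differ in the direction of their values, Calr carries it in the opposite orientation, Hsp90b1 carries it once in each orientation (the match nearer to the start is printed), and Herpud1 and Asns carry the other elements.
Hspa5 (ERSE, chr2:34771995-34772073, + strand): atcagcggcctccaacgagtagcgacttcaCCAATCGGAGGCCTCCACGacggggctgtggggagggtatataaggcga
Pdia6 (ERSE, chr12:17266461-17266539, + strand): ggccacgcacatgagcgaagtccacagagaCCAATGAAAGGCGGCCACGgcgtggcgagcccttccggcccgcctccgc
Hsp90b1 (ERSE, chr10:86705503-86705581, - strand): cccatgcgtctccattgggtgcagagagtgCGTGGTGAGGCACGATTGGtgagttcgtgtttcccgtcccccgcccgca
Calr (ERSE, chr8:84847045-84847123, - strand): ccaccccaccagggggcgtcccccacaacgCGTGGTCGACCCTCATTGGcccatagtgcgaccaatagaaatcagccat
Herpud1 (ERSE-II, chr8:94386347-94386417, + strand): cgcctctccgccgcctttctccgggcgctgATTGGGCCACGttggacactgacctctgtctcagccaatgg
Asns (CARE, chr6:7693210-7693262, - strand): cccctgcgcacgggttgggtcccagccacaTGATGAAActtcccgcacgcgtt

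The 8 ERSE genes that were tested did not lie on 1 side. Log2 fold changes were above 0 for Hspa5, Hsp90b1, Canx, Dnajc3 and Calr and below 0 for Syvn1, Ero1lb and Pdia6, from -1.61 for Pdia6 to 1.94 for Hspa5, with a median of 0.14 and 0 past the adjusted test. Creld2 and Derl3 had too few counts.

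The ER membrane holds 3 sensors, and their genes differed in direction. Atf6 (chromosome 1, 170704674 to 170867771, mm10) encodes the sensor that is cut in the Golgi to release a transcription factor. Its counts were 7, 4 and 3 against 138, 59 and 23, or 22.6 ± 12.1 against 155 ± 139.7 normalized CPM (SD, n = 3). All DKO libraries lay above all WT libraries, with DKO library 1 holding 58.6% of the summed level. On the log2 scale the difference came to 2.77 (SE 1.08, edgeR adjusted p = 0.390), or 1.90 without DKO library 1. Ern1 (chromosome 11, 106394650 to 106487852) encodes the kinase and endoribonuclease IRE1alpha. Its counts were 18, 21 and 21 against 96, 113 and 82, or 95.1 ± 14.6 against 195 ± 31.4 normalized CPM (SD, n = 3), again with no overlap. The fitted log2 difference of 1.03 (SE 0.89, edgeR adjusted p = 0.640) stayed between 0.97 and 1.27 with any 1 library left out. Eif2ak3, the sensor kinase PERK, which phosphorylates the translation factor eIF2alpha (chromosome 6, 70844515 to 70905245), lay the other way, with 58, 20 and 16 counts against 34, 30 and 19. In normalized CPM these were 302.9, 77.3 and 84.0 against 76.9, 55.2 and 36.8. The groups were separated only by the gap between 76.9 and 77.3, and they overlapped with TMMwsp, upper quartile or no scaling factors. Its log2 fold change of -1.45 (SE 0.97, edgeR adjusted p = 0.530) was -0.45 without WT library 1.

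The other membrane-bound factors and their proteases had fewer counts. Mbtps1, the site-1 protease that cuts ATF6, had 5, 36 and 6 counts against 30, 39 and 52 (log2 fold change 0.27, SE 0.97), and 1.51 without WT library 2. Mbtps2 (site-2 protease), Atf6b, a relative of Atf6, and Creb3l2, a related transcription factor that promotes secretory capacity, had 0 to 26 counts in any library and were not tested. For Mbtps2, 28.4% of the exonic bases are shared with the gene Yy2.

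In the integrated stress response, the kinase genes were counted in all libraries but the downstream factors were near the limit of detection. Eif2ak2, the double-stranded RNA kinase PKR, had 2, 6 and 2 counts against 15, 26 and 31, or 14.7 ± 7.34 against 47.3 ± 13.1 normalized CPM (SD, n = 3), with no overlap (log2 fold change 1.64, SE 0.94, edgeR adjusted p = 0.476). Eif2ak1, the heme-regulated kinase, and Eif2ak4, the amino acid sensor GCN2, overlapped between groups. Eif2ak4 had the highest level per length of this branch, 20.2 normalized CPM per kb of exon over the 6 libraries, and its counts in WT ranged from 2 to 65. Its log2 fold change was 0.15 (SE 1.14), or 1.89 without WT library 1, and that of Eif2ak1 was 0.69 (SE 1.01), or 2.05 without the same library. Ppp1r15b, the constitutive regulatory subunit of the eIF2alpha phosphatase, was at -0.31 (SE 1.01), and above 0 with library totals alone. Asns, asparagine synthetase and a target of ATF4, was at 0 in each WT library, with 18, 33 and 8 counts for DKO. Set against the limit that 3 counts over the whole WT group allow, which covers counting error only, its DKO mean was at least 8.33-fold higher. The filter kept it from the test; over the settings in which it could be fitted, its edgeR adjusted p was 0.130 (no low-count filter) to 0.710 (without DKO library 3). Trib3, a pseudokinase induced by ATF4, was also at 0 in each WT library, and at 4, 4 and 0 counts for DKO.

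The genes of the translation factor, of the downstream transcription factors and of the induced phosphatase subunit had too few counts for the main test. Atf4, the main factor translated when eIF2alpha is phosphorylated, had 0, 1 and 2 counts against 6, 14 and 1. Ddit3, the pro-apoptotic factor CHOP, had 0, 0 and 1 against 3, 1 and 14, and Ppp1r15a, the stress-induced phosphatase subunit GADD34, had 0, 4 and 1 against 15, 8 and 5. Atf5 had 1 count in all, in WT library 2. Eif2s1, which encodes eIF2alpha itself, had 0, 4 and 8 counts against 3, 17 and 6. For all 5 genes the groups overlapped in normalized CPM, but Ppp1r15a was higher without overlap with library totals alone. Fitted with no low-count filter, Atf4, Ddit3 and Ppp1r15a were at 1.79, 2.93 and 1.65 on the log2 scale, with edgeR adjusted p of 0.640, 0.518 and 0.649.

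The chaperone genes gave 7 values above 0 among 7 tested (6 with the size factors of DESeq2), with a median log2 fold change of 0.99 and 0 past the test. Of the 7, Hspa5 and Hyou1 passed the filter through DKO libraries alone, which favours a value above 0. Both the count and the median include them, and the other tested chaperone genes lay between 0.07 and 1.31. Hsp90b1 and Dnajc3 were each over the filter level in 1 WT and 3 DKO libraries. Fitted with no low-count filter, the untested Creld2, Sdf2l1, Mzb1 and Fkbp11 lay below 0, at -3.48, -3.19, -2.41 and -2.21. The untested Dnajb9 and Manf lay above 0 in that fit, at 2.31 and 6.83. Hspa5, the Hsp70 chaperone BiP that also holds the sensors inactive (chromosome 2, 34771970 to 34777547), was counted 6, 3 and 4 times against 16, 77 and 35, or 21.3 ± 9.88 against 81.9 ± 54.2 normalized CPM (SD, n = 3). All DKO libraries lay above the WT libraries, the closest pair being WT library 1 at 31.3 and DKO library 1 at 36.2. Its log2 difference was 1.94 (SE 1.00, edgeR adjusted p = 0.438), between 1.40 and 2.44 with any 1 library left out. Hyou1, a large Hsp70 relative that works with BiP, had 2, 6 and 2 counts against 21, 14 and 29, without overlap (log2 fold change 1.504, SE 0.95, edgeR adjusted p = 0.510). Hsp90b1, the ER Hsp90 known as GRP94, had 0, 22 and 4 against 31, 69 and 37, so that WT library 2, at 85.0 normalized CPM, lay above DKO libraries 1 and 3; with upper quartile scaling or library totals alone the groups did not overlap. Without that library its log2 fold change went from 1.31 (SE 1.19) to 3.09.

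Cofactors of BiP and the lectin chaperones were spread more widely. Dnajb11, a J-domain cofactor with the highest mean of this branch per length over all 6 libraries (11.9 normalized CPM per kb in WT, where Mzb1 was at 26.9, and 24.0 in DKO), had 0, 19 and 8 counts against 9, 81 and 33 (log2 fold change 0.99, SE 1.24). Dnajc3, which also restrains the eIF2alpha kinases, had 13, 6 and 0 against 24, 15 and 12. The lectins Calr and Canx, which bind newly made glycoproteins, had 15, 9 and 0 against 5, 33 and 24 and 4, 12 and 16 against 19, 26 and 57. Their log2 fold changes were 0.07 (SE 1.201) and 0.41 (SE 0.96), and Calr was below 0 with the size factors of DESeq2. Without WT library 3 the number of chaperone genes above 0 went from 7 to 5, and it was 6 without any 1 of the DKO libraries.

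Of the 6 chaperone genes that were not tested, Manf, a protein released under ER stress, was at 0 in each WT library. Of the 54 genes, 3 were at 0 in all WT libraries and 3 in all DKO libraries. The share of all symbols at 0 in each WT library was not counted. Manf had 29, 22 and 3 counts for DKO, a mean at least 7.97-fold higher by the same limit. DKO library 1 held 58.6% of its summed level. Where it could be fitted its edgeR adjusted p was 0.141 (no low-count filter) to 0.710 (without DKO library 3). The untested Fkbp11 and Mzb1 had lower DKO means. Fkbp11, a prolyl isomerase of secretory cells, had 14, 11 and 0 counts against 0, 5 and 5, and Mzb1, a cochaperone for immunoglobulin in marginal zone and B-1 cells, had 0, 5 and 15 against 1, 6 and 0, with 57.2% of its exonic bases shared with another annotated gene. Both overlapped widely between groups. Creld2 had 7, 1 and 0 counts against 0, 1 and 0, with 86.5% of its summed level in WT library 1. Sdf2l1 had 2 counts in all, both in that library, and Dnajb9 at most 9 in any library.

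**Figure D3:**
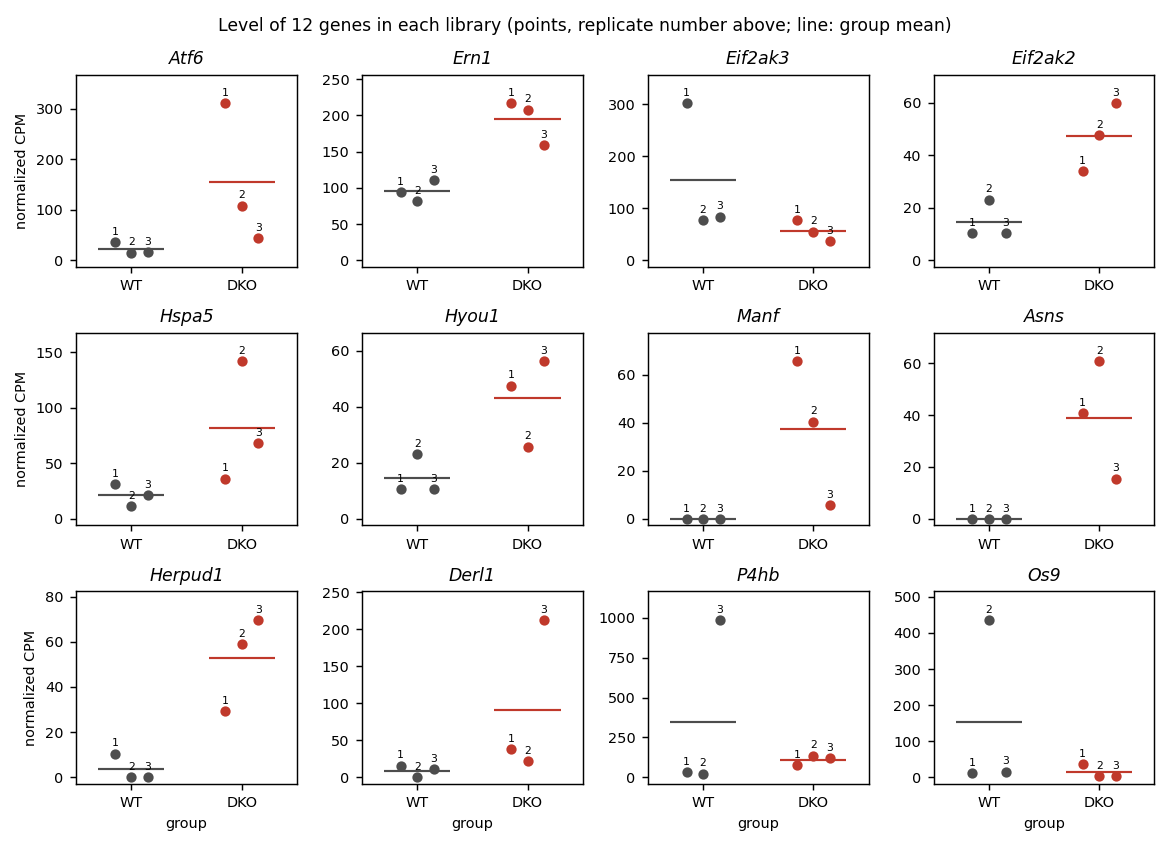
Normalized CPM (y axis, a separate linear scale for each gene) of 12 genes in WT (grey) and DKO (red) libraries; points are libraries with their replicate number, and lines are group means. The DKO points lie above the WT points for 9 genes, below them for Eif2ak3 (under TMM, by a gap of 76.9 to 77.3), and P4hb and Os9 have 1 high WT library each. These 9 are all of the 54 genes with that separation under TMM, so their number follows from the choice of genes. Of all tested genes, 12.8% lay higher in DKO without overlap. Eif2ak2, Hspa5, Hyou1, Herpud1 and Derl1 passed the filter through DKO libraries alone, and Asns and Manf did not pass it.

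Genes of disulfide formation lay mostly on the other side, 6 of 7 tested below 0 (5 with upper quartile scaling, library totals alone, limma-voom, no low-count filter or a filter at a mean of 10 CPM) with a median log2 fold change of -1.61 (-1.01 with limma-voom), and all 7 overlapped between groups. Of the 7, 4 had over 50% of their summed level in 1 library (29.7% of all tested genes did). P4hb, the isomerase PDI, had the highest mean level of the 54 genes per length, 121 normalized CPM per kb in WT and 38.8 in DKO. It had 6, 6 and 188 counts against 33, 74 and 63. Its fitted log2 fold change of -1.64 (SE 1.41) was 2.09 without WT library 3. Pdia6, a further isomerase, had 5, 11 and 73 counts against 26, 34 and 13, and went from -1.61 (SE 1.14) to 0.57 without the same library. In that library Ell2, an elongation factor of antibody-secreting cells in the plasma cell list, had 149 counts against 7 and 5 in the other WT libraries, whereas Prdm1, which defines plasma cells, had 0 there.

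Txndc5 and Pdia3 were lowest in the fit and rested on WT library 2 in part. Txndc5, an isomerase abundant in plasma cells, had 2, 51 and 21 counts against 6, 1 and 19 (log2 fold change -2.59, SE 1.27, edgeR adjusted p = 0.420), or -1.74 without WT library 2 and -3.66 without DKO library 3. Pdia3, which folds glycoproteins with Calr and Canx, had 23, 80 and 8 against 21, 8 and 33 (-1.90, SE 1.05, edgeR adjusted p = 0.464), or -0.90 without WT library 2. The oxidase genes Ero1lb and Ero1l, which reoxidize PDI, lay at -1.01 (SE 0.95) and -0.17 (SE 0.98), and Ero1l was above 0 with upper quartile scaling and with library totals alone. Pdia4 was the exception above 0, at 0.54 (SE 1.29), with 1, 31 and 0 counts against 26, 44 and 24, and 4.44 without WT library 2. Dnajc10, a reductase that helps degradation, had 6, 0 and 1 counts against 8, 12 and 11 and was not tested. Without WT library 3 the branch had 4 of 7 genes below 0 and a median of -0.47.

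In ER-associated degradation 5 of 8 tested genes lay above 0 (median 0.22), the highest being Herpud1 and Derl1. Both passed the filter through DKO libraries alone, which favours a value above 0, and their p-values are given as a description. The count and the median of the branch include them, and its other tested genes lay between -1.11 and 0.88. Herpud1, a membrane protein that assembles the degradation complex (chromosome 8, 94386438 to 94395377), was counted 2, 0 and 0 times against 13, 32 and 36, or 3.48 ± 6.03 against 52.7 ± 20.9 normalized CPM (SD, n = 3). The groups did not overlap, and 2 counts in WT library 1 were the only ones of its group. The fitted log2 difference was 3.88 (SE 1.32, edgeR adjusted p = 0.390), or 7.39 without that library. DESeq2 gave an adjusted p of 0.0459 on the genes kept by the filter and 0.162 on the whole table. Derl1, a derlin of the channel through which proteins leave the ER, had 3, 0 and 2 counts against 17, 12 and 110 and also did not overlap. Its log2 fold change of 3.39 (SE 1.36, edgeR adjusted p = 0.390) was 1.90 without DKO library 3, which held 71.1% of its summed level.

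The ubiquitin ligase core was near equal or uneven. Sel1l, the ligase scaffold, had 7, 13 and 15 counts against 34, 50 and 27 (log2 fold change 0.42, SE 0.89), between 0.27 and 0.83 with any 1 library left out; with library totals alone its groups did not overlap. Syvn1, the ligase HRD1, was at -0.38 (SE 1.19), with 0 counts in DKO library 1, and Derl2 at 0.03 (SE 1.02), below 0 with the size factors of DESeq2. The mannosidase-like genes Edem1, Edem2 and Edem3, which mark misfolded glycoproteins, were at 0.88 (SE 1.24), -1.11 (SE 1.00) and -0.40 (SE 1.01). Edem1 was at 3.50 without WT library 3, and without WT library 2 Edem2 was at -0.34 and Edem3 at 0.88. With library totals alone Syvn1 and Edem3 were above 0. None of these 6 separated the groups under TMM.

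Herpud2 and Os9 were carried by WT library 2 and did not pass the filter. Os9, a lectin that hands misfolded glycoproteins to the ligase with the highest mean of the branch per length over all 6 libraries (58.7 normalized CPM per kb in WT and 5.55 in DKO, where Derl1 was at 27.4), had 2, 113 and 3 counts against 16, 2 and 2, with 86.2% of its summed level in that library. Herpud2, a relative of Herpud1, had 21, 107 and 3 counts against 7, 4 and 2, or 109.7, 413 and 15.8 against 15.8, 7.36 and 3.87 normalized CPM, with WT library 3 and DKO library 1 next to each other; with the size factors of DESeq2 they did not overlap. In DESeq2 on the whole table its log2 fold change was -4.32 (adjusted p = 0.0583), the smallest adjusted p of the 54 genes in that fit, and with edgeR and no low-count filter it was -4.02 (adjusted p = 0.184). Derl3 had 3 counts in all, in WT library 2.

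The translocon genes overlapped between groups. Sec61a1, the pore of the channel, had 0, 20 and 1 counts against 44, 33 and 19 (log2 fold change 1.198, SE 1.26), and 4.52 without WT library 2. Sec63, which couples the channel to BiP and had the highest mean of the branch per length over all 6 libraries (15.2 normalized CPM per kb in WT and 12.1 in DKO, where Sec61b was at 16.5), had 63, 9 and 7 against 66, 48 and 42. Its log2 fold change went from -0.32 (SE 1.08) to 1.63 without WT library 1, and was above 0 with library totals alone. Sec61b and Sec62 had at most 20 counts in any library and were not tested.

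**Figure D4:**
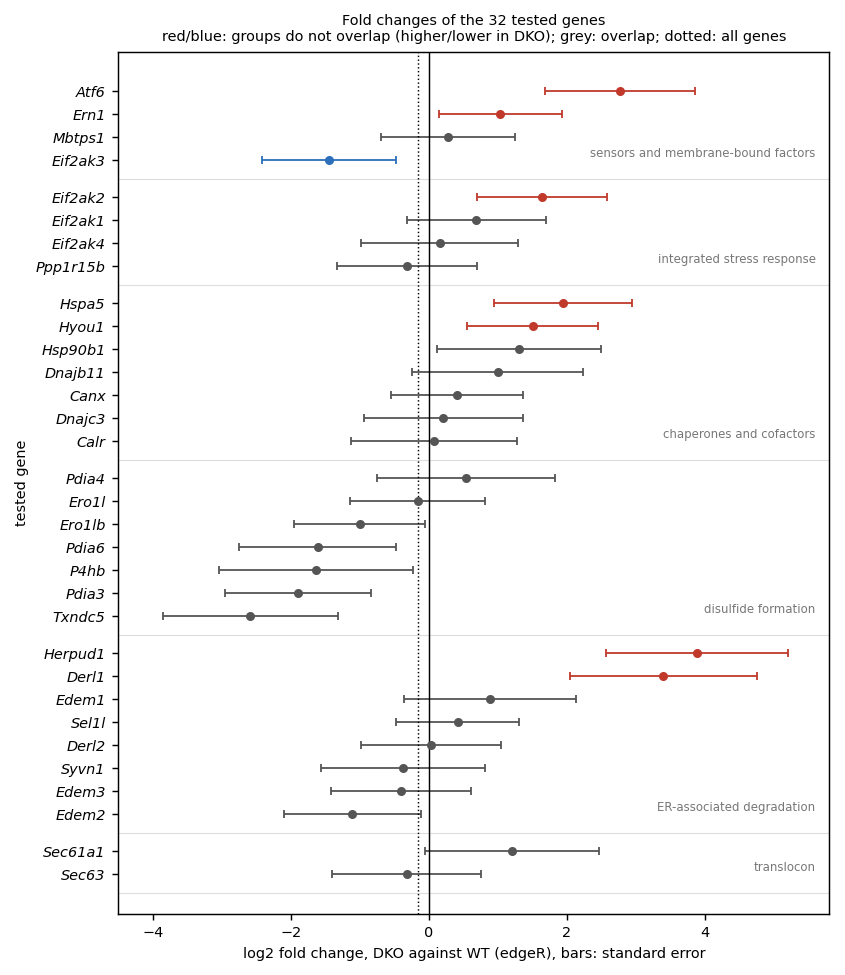
Log2 fold change, DKO against WT (x axis, edgeR, bars are standard errors), of the 32 tested genes by role (y axis). Red and blue mark genes whose groups do not overlap, and the dotted line is the median of all tested genes at -0.17. The 7 tested chaperone genes lie above 0 (Calr below with the size factors of DESeq2). Of the 7 tested disulfide genes 6 lie below (Ero1l above with library totals alone). Eif2ak2, Hspa5, Hyou1, Herpud1 and Derl1 passed the filter through DKO libraries alone.

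Single libraries decided much of this pattern. Of the 32 genes, 26 had a fold change that shifted by over 1.5-fold when some 1 library was dropped, and 13 changed direction. The shares of all tested genes that did so were not counted, so neither number sets the ER genes apart. The chaperone genes had a median log2 fold change between 0.73 and 1.68 over the 6 such fits, and the disulfide genes between -1.99 and -0.47, while all tested genes were between -0.22 and 0.09. The chaperone medians include Hspa5 and Hyou1, which passed the filter of the main fit through DKO libraries alone. At least 1 WT library was at 0 for 28 of the 54 genes (51.9%) and at least 1 DKO library for 10 (18.5%); over the whole table these were 70.2% and 47.9%. The difference in fold change between the chaperone and disulfide branches was not tested.

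**Figure D5:**
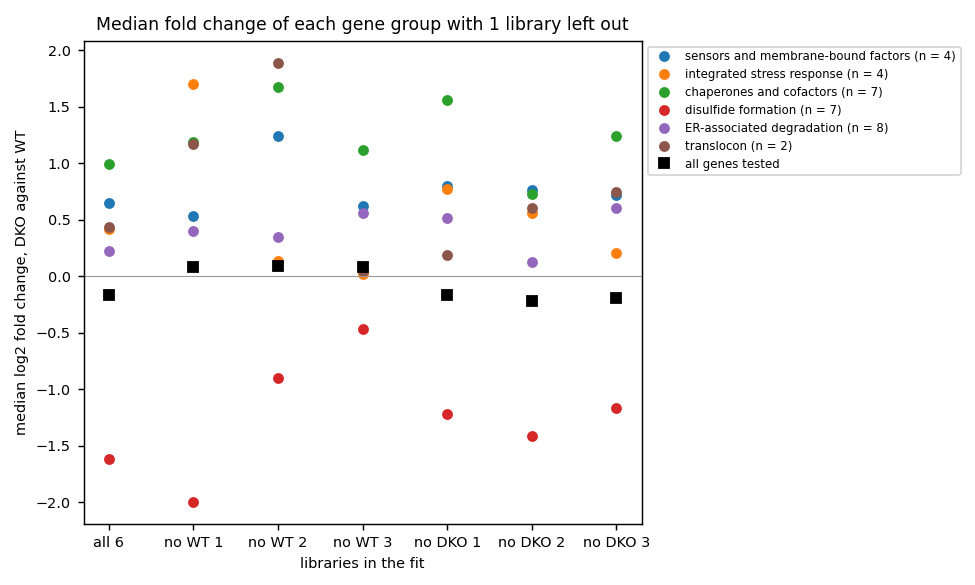
Median log2 fold change, DKO against WT (y axis), of the tested genes of each branch (coloured points) and of all tested genes (black squares), with all 6 libraries and with each library left out in turn (x axis). The chaperone median lies between 0.73 and 1.68, and the disulfide median rises to -0.47 without WT 3. The chaperone genes include Hspa5 and Hyou1, which passed the filter of the main fit through DKO libraries alone.

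Neighbouring steps of the pathway were read from lists grouped by function, and 0 of their tested genes passed the adjusted test. Among other degradation and extraction factors 7 of 14 tested genes lay above 0 (median 0.00). Ube2j2, a ubiquitin-conjugating enzyme of the ER, had 3, 0 and 4 counts against 36, 61 and 122 (log2 fold change 3.56, SE 1.23, edgeR adjusted p = 0.390), without overlap. Ube2j2 passed the filter through DKO libraries alone, which favours a value above 0. Of all tested genes, 12.8% lay higher in DKO without overlap. Nploc4, an adaptor of the extracting ATPase p97, had 16, 2 and 7 against 63, 151 and 127 (2.38, SE 1.07), also without overlap. For signal recognition, signal peptidase and oligosaccharyl transfer, 11 of 15 lay above 0 (median 0.53). Srp72 of the signal recognition particle had 6, 1 and 7 counts against 69, 64 and 57 (2.42, SE 1.04), and Magt1, an oligosaccharyltransferase subunit, 49, 14 and 1 against 12, 5 and 3 (-2.88, SE 1.30). The groups did not overlap for Srp72 and overlapped for Magt1.

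In a list of N-glycan trimming enzymes and further ER folding factors 8 of 10 tested genes lay above 0 (median 0.47). The 10 include P4ha1, Dnajc1, Tmx3 and Txndc11, which are not N-glycan enzymes, and the smallest p were those of P4ha1, a subunit of collagen prolyl hydroxylase, at 1.59 (SE 1.00) and Uggt2, a glucosyltransferase that tests folding, at 1.02 (SE 1.03). P4ha1 had 1, 8 and 10 counts against 43, 49 and 42, without overlap, and Uggt2 had 7, 4 and 14 against 73, 29 and 18. For the COPII and COPI coats, which carry cargo between ER and Golgi, 7 of 18 lay above 0 (median -0.26). Copg1, a COPI subunit, had 7, 22 and 5 counts against 43, 499 and 73 (2.95, SE 1.26), and Kdelr3, the receptor that returns ER proteins, 0, 6 and 4 against 22, 54 and 56 (2.49, SE 1.14), both without overlap. ATF4 targets had 4 of 7 above 0 (median 0.06), led by Psat1 of serine synthesis at 1.93 (SE 1.17) and Aars, the alanyl-tRNA synthetase, at 1.35 (SE 0.99). Psat1 had 0, 6 and 1 counts against 13, 11 and 35, and Aars 2, 6 and 7 against 10, 46 and 38, both with overlap. Of the 22 genes of that list 15 were not tested, among them genes carried by 1 WT library and chosen here after their values were seen. Ddit4, an inhibitor of mTORC1 signalling, had 109, 1 and 0 counts against 0, 1 and 0, and Sesn2, another, 1, 224 and 1 against 6, 3 and 1. Shmt2, of mitochondrial one-carbon metabolism, had 110, 7 and 1 against 3, 13 and 5. The summed level of the list was 399 to 2047 normalized CPM in WT and 461 to 647 in DKO. The initiation factor 2 machinery had 7 of 10 above 0 (median 0.50), but its genes with the smallest p lay below, Gcn1l1, which activates GCN2, at -2.11 (SE 1.07) and Nck1, an adaptor that restrains PERK, at -1.83 (SE 1.12). Gcn1l1 had 32, 81 and 112 counts against 17, 60 and 50, without overlap, and Nck1 5, 6 and 50 against 15, 14 and 14. Cytosolic chaperones, which work outside the ER, had 6 of 11 above 0 (median 0.42), with Cct4 at 1.40 (SE 0.98) and Hsp90ab1 at 1.42 (SE 1.05). Cct4, of the chaperonin ring, had 5, 8 and 3 counts against 23, 64 and 13, and the Hsp90 gene Hsp90ab1 had 1, 9 and 1 against 11, 21 and 33, both with overlap. Kdelr3, Psat1, Cct4 and Hsp90ab1 passed the filter through DKO libraries alone, which favours values above 0.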

How the data were processed

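RNA of sorted memory B cells was sequenced in 6 libraries, prepared from polyA RNA with a kit meant for single cells, per the labels' protocols. The authors deposited whole-number read counts for each gene symbol, without normalization. CASAVA, STAR, edgeR, R 3.6.3 and mm10 are listed, with no role, in the submitters' processing notes. Counting tool, strand setting and annotation: not given in the sources used here. Reads from overlapping genes therefore cannot be told apart; 20 of 53 genes with 1 annotated position share exonic bases with another gene, 9 of them over 5%. Columns were matched to samples by name, with 0 left over.

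The test was made in edgeR 4.0.16 under R 4.3.3, with filterByExpr (minimum count 10), TMM, quasi-likelihood F test with robust estimation, no covariate, Benjamini-Hochberg adjustment over 8895 genes, threshold 0.05. Standard errors are the log2 fold change over the root of F. The biological coefficient of variation was 0.915. Positions and exonic lengths come from GENCODE mouse release 21 (mm10); promoters from RefSeq. Floors are 3 counts over a group.

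The genes, branches and lists were chosen with earlier results of these data known. Values per library are given for the 3 sensors, for genes with an unadjusted p under 0.05 or groups that do not overlap, for the highest per kb of each branch, for genes with over 80% of their level in 1 library, and for the 2 smallest p of each pathway list; the rest were chosen after their values were seen. Alternatives were other scalings and filters, DESeq2 1.42.0, limma-voom (limma 3.58.1), no robust estimation, a replicate block and each library left out; DESeq2 on the whole table was chosen after seeing the data. Simulated data served to test the edgeR steps. Protein sequences are not used here.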

Additional observations from a re-analysis of the deposited data

How the results depend on the processing

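The count of genes past the adjusted test was 0 in edgeR under each scaling, with the stricter filter (mean CPM of at least 10), without robust estimation and with each library left out, and 0 in limma-voom. It was 130 with no low-count filter, 601 with DESeq2 on the genes kept by the filter and 215 with DESeq2 on the whole table. Of the ER genes 0 passed under these settings, except 1 (Herpud1) with DESeq2 on the kept genes. The median log2 fold change of the ER genes was above 0 in all settings tried. It was 0.24 in the main fit, 1.03 with library totals alone, 0.87 with limma-voom and 0.21 to 0.55 with 1 library left out. Over all tested genes the medians were -0.17, 0.62, 0.23 and -0.22 to 0.09 in the same order. With 1 library left out the filter was applied anew, so those medians are over 35 to 41 ER genes and not the 32 of the main fit. The ER genes of the main fit include the 5 that passed the filter through DKO libraries alone. With no low-count filter 33 of 54 ER genes lay above 0 (61.1%, beside 55.4% of all genes, with medians of 0.44 and 0.29). The cause of these differences was not tested, beyond the larger number of genes fitted with no filter. The labels do not say whether replicate numbers pair the libraries. Deviations from the group means correlated at 0.02 to 0.04 for same-numbered libraries and at -0.024 to -0.004 for the others. Each library thus correlated best with its own number, but values this small at this depth cannot decide whether the libraries were paired. With the replicate block 0 genes passed, 24 of 32 ER genes lay above 0 and their median was 0.63 (56.7% of all genes, with a median of 0.27); 4 of 7 disulfide genes were below 0 (median -0.53), with P4hb at 0.44. Since 3 counts were worth 5.52 to 15.8 normalized CPM, Atf4, Ddit3, Ppp1r15a and other genes at a few counts were near the limit of detection. The size of difference that could be detected for them at this depth was not tested.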

Other observations

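Genes outside the ER set that carry an ERSE in the RefSeq promoter table were mostly below 0. The count table held 20 such genes and 11 were tested, of which 2 had a log2 fold change above 0 and 9 below (median -0.89, beside -0.17 over all tested genes), with 0 past the adjusted edgeR test. Chosen after its values were seen, Alg12, a mannosyltransferase of glycan assembly in the ER, was counted 2, 6 and 174 times in WT against 15, 2 and 15 times in DKO. Calr4, a relative of calreticulin, had 3, 3 and 11 against 13, 42 and 11 (log2 fold change 0.60, SE 1.02). The 11 include Xlr3a and Xlr3b, members of a multigene family whose values are uncertain because the counting of shared reads is not known.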
